A study of Rattus norvegicus with 16 samples.

Results

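The ribosomal proteins of the cytosolic ribosome were followed through ageing of the rat thoracic aorta. The members are all probe sets, the groups of short probes that stand for 1 transcript on an Affymetrix array, whose platform annotation gives a single gene symbol beginning with Rpl or Rps, with the kinases named Rps6k left out. This gave 64 probe sets for 44 genes, of 4736 genes that had a probe set with a single symbol. Of the 44 genes, 17 had 2 or more probe sets. RefSeq's rat genes held 43 of the 44, and Rps2-ps1 and Rps4x-ps9 are listed there as pseudogenes.

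The study measured expression in a 1 cm piece of the descending thoracic aorta of 16 rats on RG_U34A arrays, with 4 arrays at each of 3, 6, 15 and 28 months, to follow how the vessel changes with age. The array records name a different rat for each array, so replicates are separate animals. No genotype or treatment is labelled, and the sources used here give neither strain nor sex. A piece of whole vessel holds smooth muscle, endothelium, connective tissue and any fat left around it, and in such tissue fewer cells of a type and less RNA per cell cannot be told apart.

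Ribosomal proteins and ribosomal RNA form the small and the large subunit of the ribosome, which together translate messenger RNA into protein. Their messages are among the most abundant in most cells and are made in step. They begin with a terminal oligopyrimidine (TOP) tract, a C at the first base followed by an unbroken run of C and T, through which the kinase mTOR and the RNA-binding protein LARP1 set how much of them is translated. The arrays measure the message and say nothing of its translation.

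The tract can be read at the annotated start of some of the genes whose signals are described below. Each window holds 15 bases before and 15 bases from the start that RefSeq annotates on build GRCr8, 5′ to 3′ on the gene's strand. Capitals mark the run of C and T counted from the start onwards, where the first base is a C. The first 5 windows carry such a run, and in each of them C or T also stands directly before the start. The last 2 are shown because these genes were among those whose signals increased with age while no run begins at their annotated start.
Rpl35 (chr3:43165907-43165936, minus strand): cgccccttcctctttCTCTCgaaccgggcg
Rpl22 (chr5:168117946-168117975, plus strand): gtagtgcgcccccctCCCTTTCTgcctcct
Rpl39 (chrX:121195882-121195911, minus strand): tcttctaatcgcgttCTTCCggcctgtcct
Rpl14 (chr8:129163605-129163634, plus strand): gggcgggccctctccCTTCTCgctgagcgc
Rplp0 (chr12:46718376-46718405, minus strand): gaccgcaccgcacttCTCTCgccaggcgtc
Rps10 (chr20:5700730-5700759, minus strand): gccgcgcacgccccttcctttccagcctcc
Rpl41 (chr7:1563483-1563512, minus strand): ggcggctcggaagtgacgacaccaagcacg

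The motif searched was a C followed by 4 bases that are each C or T, on the gene's strand, beginning exactly at the annotated start. It was found for 11 of the 37 member genes with a promoter in the table, which is 29.7%, against 2.63% of all 33469 promoters (881). With a start anywhere within 10 bases of the annotated one, it was found for 62.2% of the member genes and 28.9% of all promoters. The annotated start can lie some bases from the one used in the aorta. A window without the run therefore says only that the run does not begin at that base. That of Rps10 has a T there, inside a stretch of C and T. In the comparison of 28 with 3 months described below, the median log2 change was 0.38 over the 11 tested genes with the run and 0.31 over the 25 without it, given as a description with no test.

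Values below are log2(signal + 16) of MAS5 signals, which were scaled by the submitters so that the trimmed mean of every array is nearly the same (1001.7 to 1002.0). A change is therefore relative to the other transcripts of the same piece of tissue. Of the 64 probe sets, 60 for 42 genes were bright enough to be tested. The other 4 were also the dimmest of all members: both probe sets of the pseudogene Rps2-ps1, the single probe set of Rplp1l3, and 1 of the 2 for Rpl3l, the paralogue of Rpl3 that striated muscle uses. The highest mean signals were those of Rps16, both probe sets of Rps29, and Rplp0. Signals of different probe sets are not levels that can be set against each other, and paralogues and processed copies of ribosomal protein genes may hybridise to the same probes.

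Some features of the arrays moved along with the members. The fat score, the mean log2 value of 22 adipocyte and brown fat genes, had a mean of 12.45 ± 0.54 (SD) over the 4 arrays of 3 months. It was 12.57 ± 0.65 for 6 months, 11.35 ± 1.62 for 15 months and 10.89 ± 0.73 for 28 months. All 22 were lower at 28 than at 3 months, with a median log2 change of -1.57. The score ran between 9.84 and 11.42 on the arrays of 28 months and between 11.67 and 12.90 on those of 3 months, given as a description. The summed signal of these genes ran between 37900 and 98500 at 28 months and between 125000 and 275000 at 3 months, and none of the 22 was at 0 on any array. The signal of every smooth muscle marker was 1670 or more on every array. All 9 measured were higher at 28 than at 3 months, by a median of 0.48, and their summed signals of 265000 to 329000 at 28 months overlapped those of 177000 to 306000 at 3 months.

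The other marker lists gave the following values. At 28 against 3 months the median change was 0.10 over 5 endothelial genes, 0.01 over 7 fibroblast genes, 0.03 over 6 nerve genes, -0.03 over 4 lymphocyte genes, -0.20 over 6 macrophage genes, -0.23 over 4 striated muscle genes and -0.53 over 5 red blood cell genes. In this order 3, 1, 1, 2, 1, 1 and 2 genes had an unadjusted p under 0.05 (limma), where 22.5% of all genes did. A median near 0 can hold changes both ways. Of the endothelial genes Icam2 changed by 1.39, Pecam1 by 0.13 and Nos3 by 0.10, but Flt1 by -1.03 and Kdr by -1.01. Of the lymphocyte genes 2 were higher and 2 lower. Single marker genes past an adjusted p of 0.05 were S100a4 (fibroblast list, 1.64 ± 0.33, adjusted p = 0.0216), Uchl1 (nerve list, 1.80 ± 0.33, adjusted p = 0.0143) and Slc2a4 (adipocyte list, -1.14 ± 0.23, adjusted p = 0.0205), named after their values were seen. The 3'/5' signal ratio of the beta-actin control, which increases as RNA is broken down or copied incompletely, reached 3.20 for the 15-month replicate 4 and 3.82 for the 28-month replicate 4, and lay between 1.24 and 1.77 on the other arrays. The records also carry a note on cRNA, of unstated meaning, for replicates 2 and 4 of 15 months and replicates 3 and 4 of 28 months.

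Most ribosomal protein signals were slightly higher in the old aorta, but none passed the test of 28 against 3 months. At 28 against 3 months 56 of the 60 tested probe sets had a higher mean and 4 a lower one. With 1 probe set per gene, 40 of 42 ribosomal protein genes were higher, as were 1767 of all 3153 genes. How many of all tested probe sets were higher was not counted, here or for the other ages compared below. The median log2 change of the members was 0.31, which is 1.24-fold, against 0.06 over all 5250 probe sets tested. The middle 2 quartiles of the members lay between 0.23 and 0.45, and those of all tested probe sets between -0.29 and 0.38. No member passed an adjusted p of 0.05 (limma, Benjamini-Hochberg over all 5250), where 1.28% of all tested probe sets did, and the lowest adjusted p of a member was 0.066 for Rpl35. At an unadjusted p under 0.05 there were 20 of 60 members, all higher at 28 months, where the share over all tested probe sets was 22.4% in either direction (1178).

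With the replicate number as a block, which pairs 1 array of each age, 12.2% of all tested probe sets passed in either direction (642). Of these 343 were higher at 28 months. Of the 60 members 11 passed, all of them higher at 28 months. These were Rpl3, Rpl13a, Rpl14, Rpl21, Rpl22, Rpl35, Rpl39, Rpl41, Rps10, Rps27l and Rps4x-ps9, each with 1 probe set. In 25 of 60 probe sets, or 41.7%, all 4 arrays at 28 months lay above all 4 at 3 months, where 10.4% of all tested probe sets did so (548). In none did all 4 lie below, and how often that held over all tested probe sets was not counted.

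**Figure D1:**
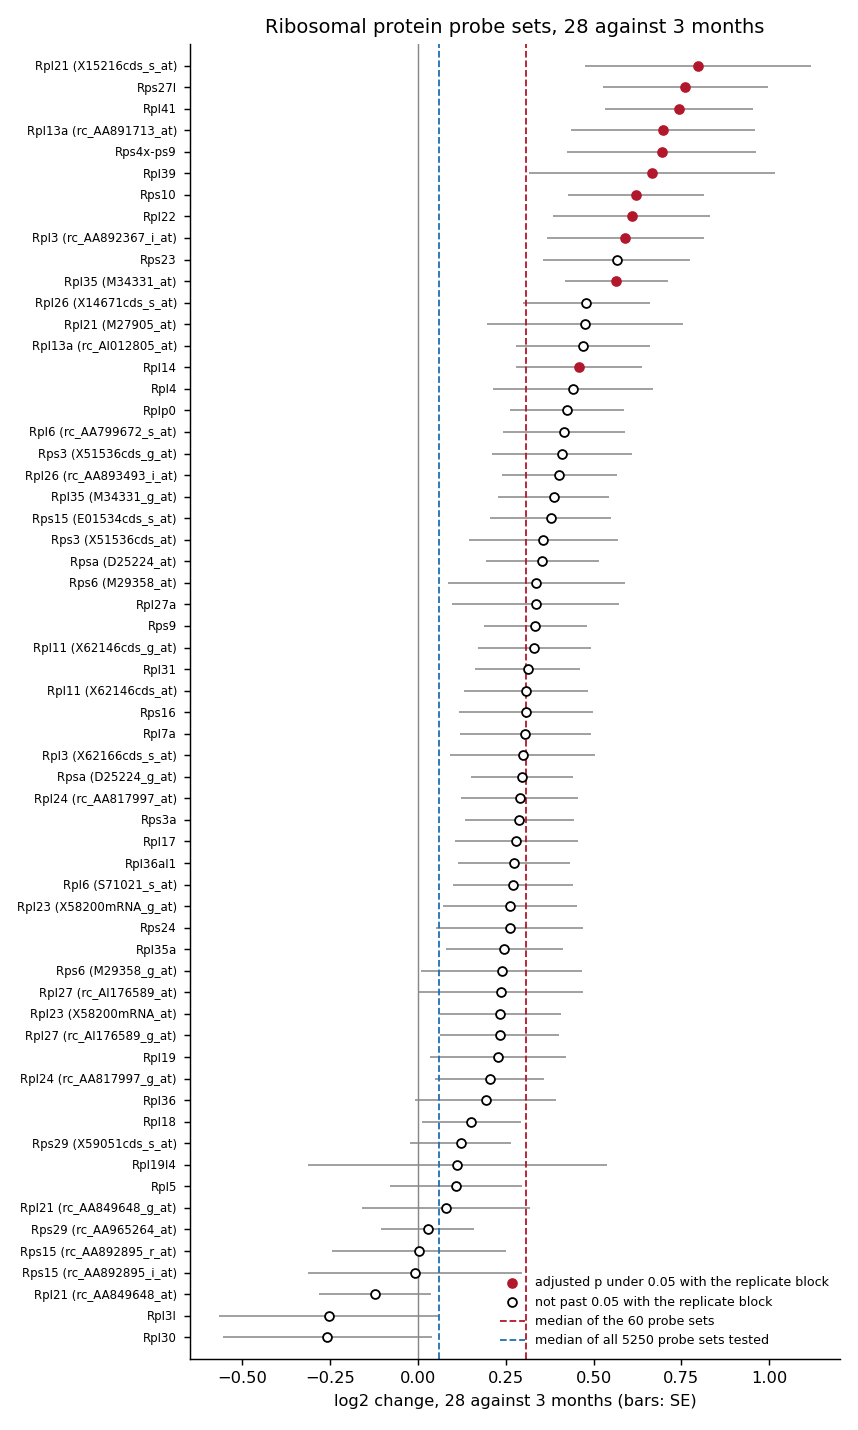
Log2 change at 28 against 3 months of the 60 tested ribosomal protein probe sets (x axis; bars are the SE of the fit without the block), 1 row per probe set with its ID where a gene has several. Points lie to the right of 0 for 56 of 60, the red dashed line at 0.31 is the members' median and the blue one at 0.06 that of all 5250 tested, and the 11 filled points had an adjusted p under 0.05 with the replicate block.

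Both subunits were represented. For the large subunit 37 of 40 tested probe sets were higher at 28 than at 3 months, with a median change of 0.30. For the small subunit these figures were 18 of 19 and 0.33. The stalk, the flexible arm that recruits the elongation factors, was represented by Rplp0 alone.

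The remaining comparisons of ages called no member. At 6 against 3 months 26 of 60 were higher, the median change was -0.02 (-0.03 over all tested; -0.088 to 0.042 without 1 array), and no member and 0.0% of all tested probe sets passed the threshold, with no member at an unadjusted p under 0.05 (limma). At 15 against 3 months 56 of 60 were higher, with a median of 0.21 (0.02 over all tested). Without 1 array this median ran between 0.132 (without replicate 1 of 3 months) and 0.306 (without replicate 1 of 15 months), and it was 0.134 and 0.135 without replicates 3 and 4 of 15 months. None passed there, where 0.0952% of all tested did, and 2 members had an unadjusted p under 0.05. At 28 against 15 months 52 of 60 were higher, with a median of 0.12 (0.05 over all tested). This median was 0.016 without replicate 1 of 15 months, and 0.196 and 0.2 without replicates 3 and 4. None passed, as 0.0% of all tested did, and 1 member had an unadjusted p under 0.05. The mean was highest at 28 months in 50 of the 60 probe sets, and lowest at 6 months in 33 and at 3 months in 24. The F test over the 4 ages called no member, where it called 0.648% of all tested probe sets, and 12 members had an unadjusted p under 0.05. With the replicate block it called 2 of the 60 members and 5.92% of all tested probe sets (311).

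A slope on age in months uses all 16 arrays, and 10 of the 60 members passed with it, all increasing with age, where 13.3% of all tested probe sets passed in either direction (698). With the replicate block 23 members passed and 25.2% of all tested (1321). The 10 were both probe sets of Rpl35 and 1 each of Rpl41, Rps27l, Rps10, Rplp0, Rpl3, Rpl26, Rpl13a and Rps23. The count moved with single arrays, and so did that over all tested probe sets. Among the 3-month arrays, leaving out replicate 1 or 3 gave 2 (247 and 238 of all 5250 tested). Among those of 6 months, it was 3 when replicate 1 was left out (272 of all) and 4 for replicate 2 or 3 (296 and 330). Leaving out replicate 1 of 15 months gave 18 (904). Of the 28-month arrays, leaving out replicate 4 gave 2 (154 of all), replicate 1 or 2 gave 3 (196 and 235), and replicate 3 gave 6 (439). Rpl35 (M34331_at) and Rpl41 passed in all 16 of these fits, Rps27l in 13 and Rps10 in 10. The other 6 passed in 5 to 8.

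The per-array median of the members, each taken as a deviation from its own mean over the 16 arrays, shows where the increase lay. It was -0.32, 0.00, -0.23 and 0.03 at 3 months for replicates 1 to 4, and -0.24, -0.33, -0.10 and 0.05 at 6 months. At 15 months it was -0.25, -0.04, 0.31 and 0.32, and at 28 months 0.24, 0.21, 0.19 and 0.20. The 4 old aortas lay close together and above all 8 arrays of 3 and 6 months. The 15-month arrays split, with replicates 1 and 2 in the range of the young arrays and replicates 3 and 4 above the old ones.

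The fat score split the 15-month arrays in the same way, with 12.88 and 12.60 on replicates 1 and 2 and 9.99 and 9.91 on replicates 3 and 4. So did the mean log2 value of the 9 smooth muscle markers, with 13.34 and 13.95 against 14.94 and 14.52. It was not entered in a fit. Replicates 1 and 2 belong to hybridisation day 1 and replicates 3 and 4 to day 2. Day, fat score and smooth muscle markers therefore cannot be told apart at 15 months. The smooth muscle value also varied between arrays of the other ages. For replicates 1 to 4 it was 13.32, 14.20, 13.48 and 14.47 at 3 months and 13.53, 13.15, 13.68 and 14.25 at 6 months. At 28 months it was 14.29, 14.56, 14.39 and 14.44. These values stand beside the members' medians given above, and their part in them was not tested. When the fat score entered the fit, the median member change at 28 against 3 months was 0.11, with 41 of 60 higher. No member passed then (lowest adjusted p 0.165, 4 at an unadjusted p under 0.05), where 0.667% of all tested probe sets did. With the score and the replicate block together the median was 0.04. The score moves with age itself, and its part in the result was not tested.

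Within hybridisation days, each with 2 arrays per age, the median member change at 28 against 3 months was 0.39 on day 1 and 0.30 on day 2. On day 1, 6 members passed, where 13.3% of all tested did. On day 2 no member and 0.0% of all tested passed, with 4 members at an unadjusted p under 0.05. At 15 against 3 months the medians were 0.03 on day 1 and 0.38 on day 2. At 28 against 15 months they were 0.40 on day 1 and -0.13 on day 2, so this last difference turned with the day. Without the 2 arrays of high beta-actin ratio the median at 28 against 3 months was 0.34. With the cRNA note as a covariate it was 0.32.

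**Figure D2:**
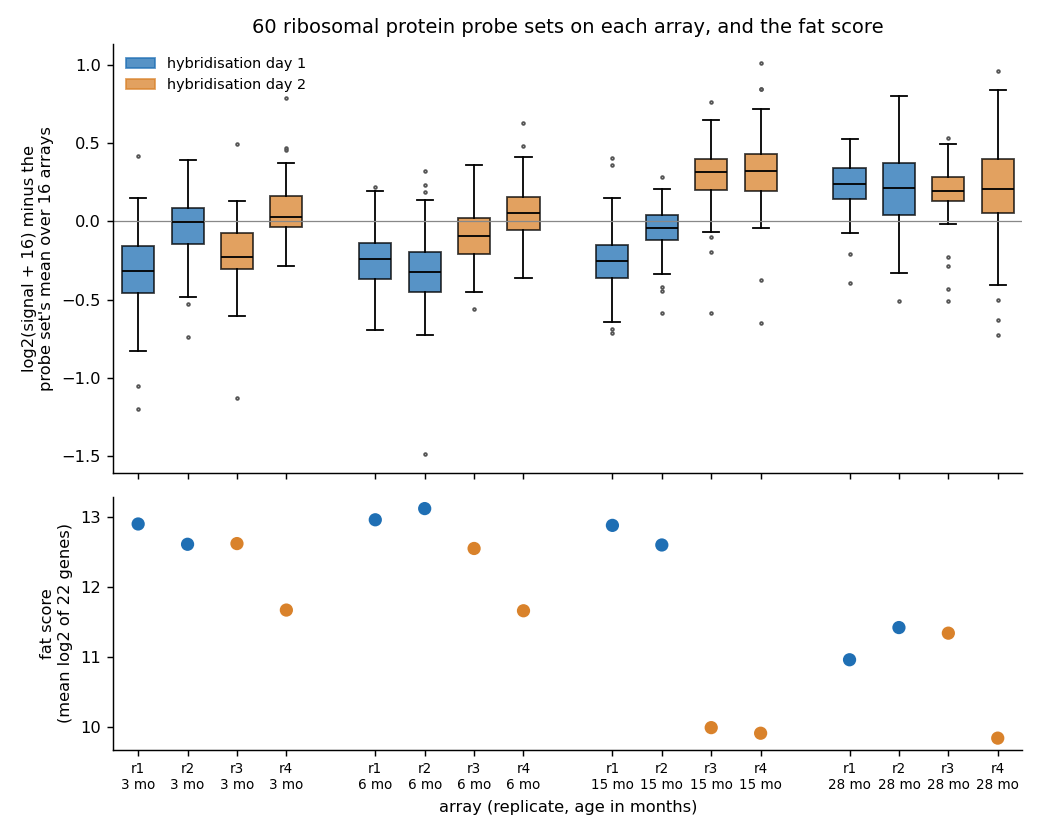
Top, the 60 tested ribosomal protein probe sets on each of the 16 arrays as deviations from each probe set's own mean (log2; box, lower to upper quartile; line, median; dots, values beyond the whiskers), and bottom, the fat score (mean log2 of 22 genes) of the same arrays. Blue arrays were hybridised on day 1 and orange ones on day 2. Medians lie at 0.19 to 0.24 on the 4 arrays of 28 months, and at 15 months the 2 arrays with low fat scores have medians of 0.31 and 0.32.

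The members' values were correlated. Over the 16 arrays the median correlation between 2 members was 0.59, against 0.03 between 2 tested probe sets of any kind. This is a description, since these values share arrays, ages and scaling. The SD between rats of 1 age had a median of 0.25 on the log2 scale (0.13 to 0.66), against 0.42 over all tested probe sets. The members were also brighter, with a median mean log2 value of 13.77, against 9.36 over all tested. This SD is therefore not set against probe sets of like brightness. Nor are the median changes, the quartiles, the correlation and the shares over all tested probe sets given above, the share without overlap among them.

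Among the large subunit proteins, Rpl35 had the lowest p at 28 against 3 months. It sits beside the tunnel through which the new protein leaves. Its probe set M34331_at read 13.02, 13.17, 13.16 and 13.34 at 3 months and 13.31, 13.14, 13.20 and 13.33 at 6 months. It read 13.21, 13.29, 13.74 and 13.41 in the 15-month and 13.73, 13.89, 13.63 and 13.70 in the 28-month aortas. All 4 old aortas lay above all 4 at 3 months and above all 4 at 6 months. The change at 28 against 3 months was 0.56 ± 0.15 (SE), or 1.48-fold (limma adjusted p = 0.066; 0.0287 with the block). The slope was 0.22 per 10 months (adjusted p = 0.0147). Its other probe set, M34331_g_at, had a change of 0.39 ± 0.16 at 28 against 3 months (adjusted p = 0.18), and its slope passed as well (adjusted p = 0.047).

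Rpl41, a very short and strongly basic peptide at the interface of the subunits, read 10.79, 11.13, 10.78 and 11.23 at 3 months and 10.82, 10.78, 10.96 and 11.02 at 6 months. It read 10.65, 11.51, 11.63 and 11.48 in the 15-month and 11.69, 12.03, 11.65 and 11.54 in the 28-month aortas. Here 3 of the 4 arrays of 15 months already lay above all 8 younger ones, and replicate 1 lay below them. Between 28 and 3 months the change was 0.74 ± 0.21 (adjusted p = 0.0864; 0.0298 with the block), and the slope was 0.33 per 10 months (adjusted p = 0.0147).

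Rpl22, an RNA-binding protein that mice need for the development of T cells, read 15.00, 14.96, 15.13 and 15.42 at 28 months, against 14.13, 14.64, 14.77 and 14.55 at 3 months. The groups did not overlap, and the change was 0.61 ± 0.22 (adjusted p = 0.159; 0.0318 with the block). Its values at 15 months were 14.54 and 14.78 on replicates 1 and 2, near the young group, and 15.36 and 15.43 on replicates 3 and 4, near the old one.

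Rpl39, another protein of the exit tunnel, read 13.64, 13.10, 13.65 and 14.28 at 28 months, against 12.12, 12.79, 13.31 and 13.78 at 3 months. These ranges overlapped, and the old aorta was the higher one for each of the 4 replicate numbers. The change was 0.67 ± 0.35 (adjusted p = 0.268; 0.0456 with the block). Rpl14, also of the large subunit, read 12.19, 12.51, 12.30 and 12.60 at 28 months, against 11.78, 12.05, 11.83 and 12.11 at 3 months. It did not overlap and differed by 0.46 ± 0.18 (adjusted p = 0.165; 0.0469 with the block).

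Rpl3, which reaches towards the peptidyl transferase centre, had 2 probe sets. The first, rc_AA892367_i_at, read 15.13, 15.18, 15.02 and 15.37 at 28 months, against 14.24, 14.49, 14.68 and 14.93 at 3 months. Its change was 0.59 ± 0.22 without overlap (adjusted p = 0.162, and 0.0315 with the block), and its slope passed (adjusted p = 0.0368). The other, X62166cds_s_at, had a change of 0.30 ± 0.21 with overlapping groups (adjusted p = 0.404). For Rpl3l, the striated muscle paralogue, the tested probe set read 8.84, 8.90, 8.19 and 8.57 at 28 months, against 9.11, 8.97, 8.82 and 8.61 at 3 months. Its change of -0.25 ± 0.31 was smaller than its error (adjusted p = 0.66).

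Rpl13a, which in human myeloid cells also leaves the ribosome to silence inflammatory messages, read 12.47, 12.75, 12.28 and 12.66 with rc_AA891713_at at 28 months, against 11.68, 12.12, 11.72 and 11.85 at 3 months. The groups did not overlap, the change was 0.70 ± 0.26 (adjusted p = 0.161, and 0.0496 with the block), and the slope passed (adjusted p = 0.0376). Its second probe set, rc_AI012805_at, had a change of 0.47 ± 0.19 without overlap (adjusted p = 0.179; 0.0676 with the block). Rpl26, beside the exit tunnel, read 14.66, 14.84, 14.68 and 14.61 with X14671cds_s_at at 28 months, against 13.95, 14.44, 14.05 and 14.42 at 3 months. It had a change of 0.48 ± 0.18 (adjusted p = 0.162; 0.0582 with the block), and its slope passed (adjusted p = 0.0379).

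Rpl21 was the only gene whose probe sets differed by over 0.5 in their change at 28 against 3 months. With X15216cds_s_at it read 13.69, 13.92, 13.75 and 14.01 at 28 months, against 12.26, 13.20, 13.05 and 13.68 at 3 months, a change of 0.80 ± 0.32 (adjusted p = 0.178; 0.0351 with the block). With M27905_at the change was 0.47 ± 0.28, with rc_AA849648_g_at 0.08 ± 0.24 and with rc_AA849648_at -0.12 ± 0.16, all 3 with overlapping groups. So the direction for Rpl21 depends on the probe set.

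Rpl5 and Rpl11 form, with a small ribosomal RNA, the particle that binds the ubiquitin ligase MDM2 when ribosome assembly fails. Rpl11 had a change of 0.31 ± 0.18 with X62146cds_at and of 0.33 ± 0.16 with X62146cds_g_at (adjusted p = 0.309 and 0.236), and Rpl5 one of 0.11 ± 0.19 (adjusted p = 0.767). Rpl4, which extends a loop into the exit tunnel, read 13.83, 13.72, 13.72 and 13.89 at 28 months, against 12.95, 13.47, 13.23 and 13.75 at 3 months. Only replicate 4 at 3 months reached the range of the old aortas, and the change was 0.44 ± 0.23 (adjusted p = 0.257). Rpl30 had the lowest change of the 60 tested members, with 8.63, 8.77, 9.06 and 9.52 at 28 months, against 8.92, 9.27, 9.52 and 9.31 at 3 months. The groups overlapped, and the change was -0.26 ± 0.30 (adjusted p = 0.638).

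The stalk protein Rplp0, often used as a reference gene, read 14.59, 15.20, 14.93 and 15.17 at 3 months and 14.95, 14.86, 14.90 and 14.82 at 6 months. It read 14.97, 15.15, 15.42 and 15.30 in the 15-month and 15.44, 15.63, 15.39 and 15.14 in the 28-month aortas. In 3 of the 4 old aortas it was above every 3-month and 6-month value, and replicate 4 lay among them. The change at 28 against 3 months was 0.42 ± 0.16 (adjusted p = 0.163; 0.0912 with the block), and the slope of 0.20 per 10 months passed (adjusted p = 0.0372).

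Among the small subunit proteins, Rps27l, a paralogue of Rps27, read 11.62, 12.01, 11.74 and 12.36 at 3 months and 11.82, 11.82, 12.09 and 12.18 at 6 months. It read 12.07, 11.91, 13.01 and 12.57 in the 15-month and 12.48, 12.57, 12.78 and 12.95 in the 28-month aortas. All 4 old aortas lay above all 8 of 3 and 6 months. The change at 28 against 3 months was 0.76 ± 0.23, or 1.69-fold (adjusted p = 0.108; 0.0249 with the block), and the slope was 0.32 per 10 months (adjusted p = 0.024).

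Rps10, in the head of the small subunit, read 13.40, 13.41, 13.04 and 13.65 at 3 months and 13.28, 13.21, 13.55 and 13.80 at 6 months. It read 13.34, 13.58, 14.13 and 13.96 in the 15-month and 14.03, 13.99, 13.92 and 14.04 in the 28-month aortas. The old aortas lay close together and above all 8 younger arrays. The change at 28 against 3 months was 0.62 ± 0.19 (adjusted p = 0.112; 0.038 with the block), and the slope was 0.25 per 10 months (adjusted p = 0.0291). Rps23, at the decoding centre, read 14.84, 14.81, 14.69 and 14.90 at 28 months, against 14.08, 14.35, 13.91 and 14.63 at 3 months. It differed by 0.57 ± 0.21 without overlap (adjusted p = 0.159, and 0.0551 with the block), and its slope passed (adjusted p = 0.0409).

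**Figure D3:**
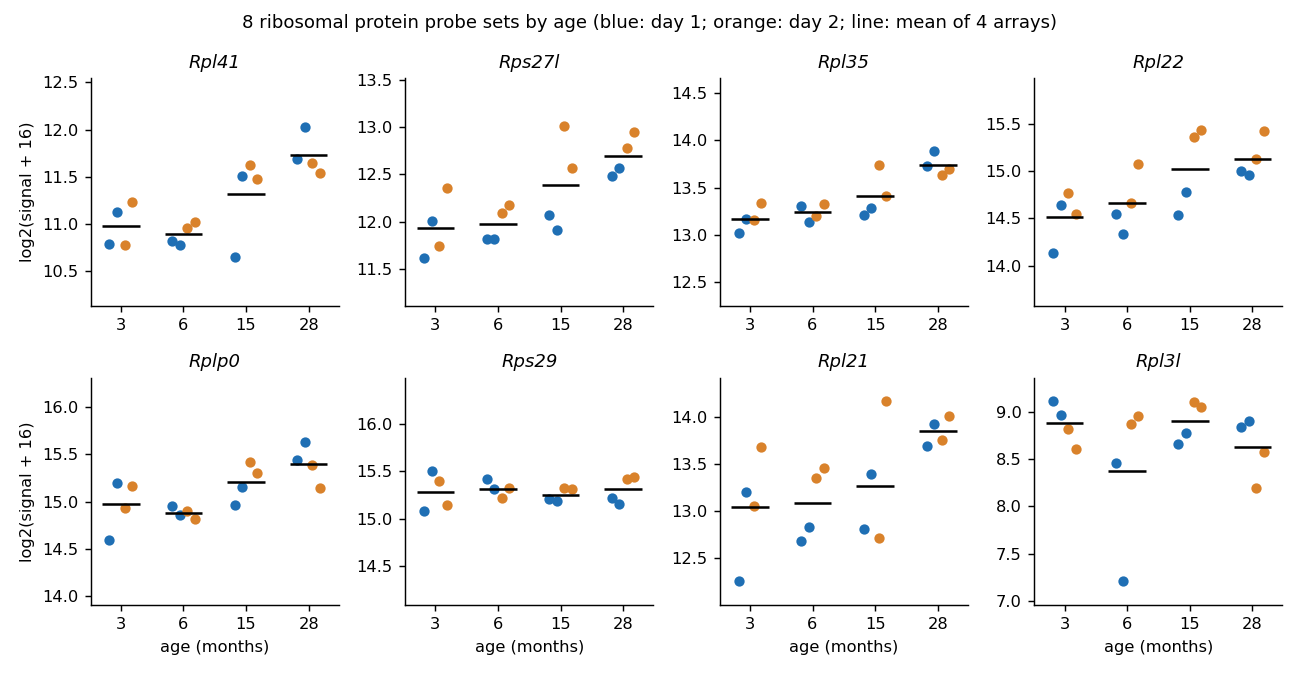
Log2(signal + 16) by age in months for 8 members, 1 point per array (blue, day 1; orange, day 2), with a line at the mean of 4 arrays; all panels span the same number of log2 units. Rpl35 (M34331_at), Rpl41 and Rps27l have all 4 points of 28 months above those of 3 months, and Rps29 (rc_AA965264_at) stays between 15.08 and 15.50 on all arrays; Rpl21 is shown with X15216cds_s_at.

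Rps4x-ps9, a pseudogene related to Rps4x, read 12.97, 12.85, 13.10 and 13.53 at 28 months, against 11.98, 12.37, 12.70 and 12.63 at 3 months, a change of 0.69 ± 0.27 (adjusted p = 0.165; 0.0206 with the block). Whether its probes read the parent gene was not tested. Rps3, which lies at the entry of the message and also acts in DNA repair, had a change of 0.36 ± 0.21 and 0.41 ± 0.20 with its 2 probe sets (adjusted p = 0.326 and 0.233). For Rps6, the substrate of the ribosomal S6 kinases, the changes were 0.34 ± 0.25 and 0.24 ± 0.23 (adjusted p = 0.447 and 0.565). Rpsa, also known as a precursor of the laminin receptor, had a change of 0.35 ± 0.16 and 0.30 ± 0.14 (adjusted p = 0.208 and 0.239), without overlap in either probe set. Rps16 had a change of 0.31 ± 0.19 (adjusted p = 0.351), also without overlap.

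The small subunit also held the members nearest to 0. Rps29, a zinc-binding protein, read 15.22, 15.16, 15.42 and 15.44 with rc_AA965264_at at 28 months, against 15.08, 15.50, 15.40 and 15.15 at 3 months, a change of 0.03 ± 0.13, and X59051cds_s_at had a change of 0.12 ± 0.14. Rps15, needed for export of the small subunit from the nucleus, had a change of 0.38 ± 0.17 with E01534cds_s_at (adjusted p = 0.211; no overlap). Its other probe sets had a change of -0.01 ± 0.30 and 0.00 ± 0.25, with 1 low value at 3 months (11.12) in rc_AA892895_r_at.

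A further 40 probe sets name a ribosomal protein gene together with other genes and were not members. Of the 39 tested, 37 were higher at 28 than at 3 months, with a median change of 0.38. None passed. At an unadjusted p under 0.05 (limma) there were 12, or 30.8%, where 22.4% of all tested probe sets were. With the replicate block 4 passed, or 10.3%, where 12.2% of all tested did.

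Other genes of protein synthesis were read with 1 probe set per gene. In this form 40 of 42 ribosomal protein genes were higher at 28 than at 3 months, with a median of 0.31. Of all 3153 genes 1767 were higher, with a median of 0.07, and the counts below are to be read beside that share. None of the 42 passed (15 at an unadjusted p under 0.05), where 1.4% of all genes passed and 22.5% had an unadjusted p under 0.05. With the replicate block 8 of 42 passed, where 11.9% of all genes did. In each of the other 8 lists no gene passed without the block.

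The elongation factors carry the ribosome along the message. All 4 measured were higher at 28 months, with a median of 0.56, 3 had an unadjusted p under 0.05, and Eef1a1, Eef1a2 and Eef1g passed with the block. Eef1a2, a form of the factor that delivers aminoacyl-tRNA, averaged 9.07 ± 0.24 at 28 months and 7.99 ± 0.57 at 3 months (SD, n = 4 each), a change of 1.08 ± 0.31 (adjusted p = 0.0873; 0.0328 with the block). Eef1g, a subunit of its exchange factor, had a change of 0.67 ± 0.25 (adjusted p = 0.162; 0.0257 with the block). The list also held Eef2k, which is no elongation factor but the kinase that inhibits Eef2, with a change of 0.96 ± 0.51 (adjusted p = 0.272; 0.0862 with the block). The median over the list of 5 with it was 0.67.

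Of 5 further genes with known or reported TOP messages, all were higher, with a median of 0.66, 3 at an unadjusted p under 0.05, and 2 passed with the block. Vim, the intermediate filament vimentin, averaged 15.43 ± 0.27 at 28 months and 14.65 ± 0.25 at 3 months, a change of 0.78 ± 0.23 (adjusted p = 0.0966; 0.0152 with the block). Rack1, a scaffold protein on the small subunit, had a change of 0.66 ± 0.24 (adjusted p = 0.161; 0.0322 with the block).

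Initiation factors, with Pabpc4 and Paip1 of the poly(A)-binding machinery, were evenly divided, with 9 of 18 higher, a median of -0.01, 1 at an unadjusted p under 0.05 and the same number passing with the block. Passing with the block was Eif4e2, a cap-binding protein, with a change of -0.81 ± 0.27 (adjusted p = 0.133; 0.038 with the block), and Eif3m had a change of 0.80 ± 0.39 (adjusted p = 0.235). Of 10 genes of ribosome assembly and the nucleolus 9 were higher, with a median of 0.15, none at an unadjusted p under 0.05 and none with the block. The 2 with the smallest p were nucleolin, Ncl, at 0.34 ± 0.18 and the helicase Ddx21 at 0.34 ± 0.40. Of 19 regulators of ribosomal protein synthesis 11 were higher, with a median of 0.15, 5 at an unadjusted p under 0.05, and 2 passed with the block, Eif2ak2 and Akt2 (-0.81 ± 0.33; 0.0298 with the block). The kinase Eif2ak2 was higher by 0.68 ± 0.19 (adjusted p = 0.0864; 0.03 with the block), and Pik3r1 had a change of 0.88 ± 0.29 (adjusted p = 0.122; 0.0634 with the block).

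The ribosomal proteins of mitochondria, which are encoded by other genes, were lower more often than higher. Of 14 measured 5 were higher, with a median of -0.23, 3 had an unadjusted p under 0.05, and 2 passed with the block, Mrps6 at 0.94 ± 0.24 (adjusted p = 0.0656; 0.0234 with the block) and Mrpl50 at -0.81 ± 0.24 (adjusted p = 0.0978; 0.0242 with the block). For oxidative phosphorylation 9 of 55 genes were higher, with a median of -0.65, 29 had an unadjusted p under 0.05, and 16 passed with the block, 15 of them lower and Atp5if1 higher. Ndufa4l2 had a change of -1.13 ± 0.27 (adjusted p = 0.0533; 0.0163 with the block) and Atp5f1b one of -0.92 ± 0.30 (adjusted p = 0.12; 0.0246 with the block). Of the 27 proteasome genes 19 were higher, with a median of 0.14, 5 had an unadjusted p under 0.05, and 1 passed with the block, Psmb4 at -0.98 ± 0.28 (adjusted p = 0.0882; 0.00766 with the block). Psmc1 had a change of 0.43 ± 0.19 (adjusted p = 0.196).

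**Figure D4:**
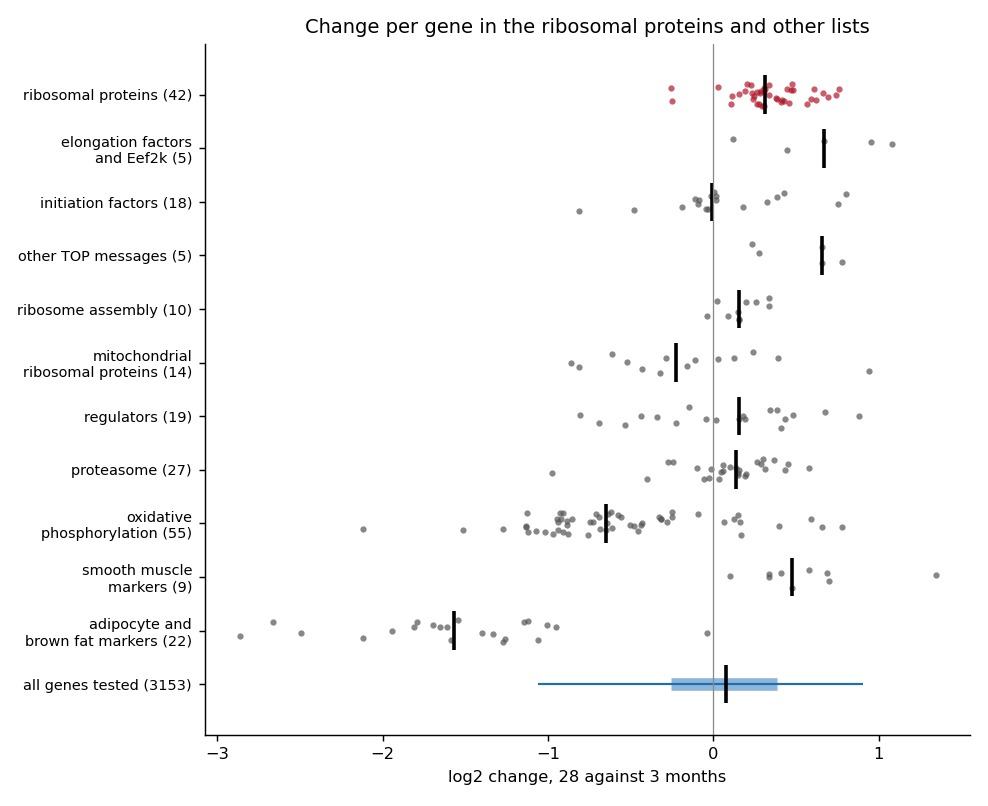
Log2 change at 28 against 3 months of each gene (1 probe set per gene; number of genes in brackets) in the ribosomal proteins (red), the other lists and, in the bottom row, all 3153 genes (thick bar, lower to upper quartile; thin line, 5th to 95th percentile). Black bars are medians, at 0.31 for the ribosomal proteins, 0.67 for the elongation factors with Eef2k, -0.23 for the mitochondrial ribosomal proteins and -1.57 for the fat markers.

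The genes outside the group whose values over the 16 arrays were most like the members' per-array median were Sparcl1, with a correlation of 0.973, Rack1 with 0.972, Gpx1 with 0.971, Ptgis with 0.968 and Pcsk5 with 0.966. These are the highest of all genes tested and are given as a description, since the arrays share ages, days and fat content. At 28 against 3 months Sparcl1, an extracellular matrix protein, had a change of 0.97, and Gpx1, a glutathione peroxidase, one of 0.67. None of the 5 passed without the block (adjusted p from 0.111 to 0.183), and Sparcl1, Rack1 and Pcsk5 passed with it.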

How the data were processed

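The authors deposited 1 table of intensity values, 1 MAS5 signal per probe set and array on a linear scale, for 16 arrays with 8799 probe sets (59 controls). The signals were made with MAS5, per the submitters' processing notes; the sources used here do not state its version or settings. The deposited array records, text of the type "other", gave rat, chip lot, fluidics station and hybridisation day; no unit is measured in them. No genome build is given for the table. Start site sequences are from RefSeq tables of build GRCr8.

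Names came from the platform annotation: 7006 probe sets had 1 symbol, 308 several and 1426 none. Values were log2(signal + 16), which understates changes of dim probe sets. Control probe sets and those with a mean under the 40th percentile were left out, leaving 5250. limma 3.58.1 in R 4.3.3 (lmFit, eBayes with a mean trend) fitted all 16 arrays with a mean for each age (12 residual degrees of freedom) or a slope on age. p-values were 2-sided and adjusted by Benjamini-Hochberg over all 5250, with a threshold of 0.05. Detection calls were not used. Precision is limited by the number of arrays.

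Each replicate number holds 1 array of every age, all of 1 hybridisation day, fluidics station and chip lot. Replicates 1 and 2 shared day 1, and replicates 3 and 4 shared day 2 and a chip lot. The block by replicate number therefore takes day, lot and station together. Deviations from the age means correlated with a median of 0.171 over the 24 pairs with the same number (-0.314 to 0.628; 13 over 0.1) and -0.034 over pairs that shared neither number nor age. The numbers pair the arrays by this record, and the fit with the replicate block is given beside the one without it.

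Members and lists were chosen with earlier results of these data known, which is why no test over a list is given. Named were the members past the threshold in any comparison, the 6 largest changes in each direction, the 4 brightest and 4 dimmest, genes whose probe sets differ by over 0.5, 22 genes whatever their values (12 had a member), the 2 smallest p in each other list, and the 5 genes most like the members' median. Genes passing only with the block were named after their values were seen. A gene in a list was represented by its brightest probe set; 10 marker lists were read for other cell types. Python 3.11.15 with pandas 2.3.3 made the summaries.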

Additional observations from a re-analysis of the deposited data

Results flagged for a closer look

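In 156 groups of 4 arrays, 1 array was compared with the other 3 by Dixon's criterion, which by chance marks about 1 group in 20, and 6 stood apart. The beta-actin 3'/5' ratio did so for replicate 4 at 15 months (3.20) and replicate 4 at 28 months (3.82), and the GAPDH ratio for the same array at 28 months (2.10). Among the members, Rpl41 was low on replicate 1 at 15 months (10.65), Rpl11 (X62146cds_at) was low on replicate 4 at 28 months (14.18), and Rps15 (rc_AA892895_r_at) was low on replicate 3 at 3 months (11.12). The low Rpl11 value is on the array with the highest beta-actin ratio, and its part in the value was not tested.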

How the results depend on the processing

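The members' median change at 28 against 3 months stayed between 0.26 and 0.388 in all settings run except with the fat score as a covariate (0.108) and with that score and the replicate block (0.035), and 39 or more members stayed higher in all settings. The count of members past the threshold at 28 against 3 months was 0 (67 of all 5250 tested), and it was 11 with the replicate block (642 of all), 7 with day as a term (465), 6 on day 1 alone (699), 13 with array weights (751), 5 with the 8 arrays of these ages alone (535) and 0 to 2 without 1 array (9 to 134). Over the 4 ages it was 0 (34 of all), and 2 with the block (311), 1 on day 1 (731), 9 with array weights (728) and 0 to 1 without 1 array (2 to 89). For the slope it was 10 (698 of all), and 4 with no filter (354 of 8740), 17 with the filter at the 60th percentile (766 of 3500), 23 with the block (1321), 24 with day as a term (1251), 0 on day 2 alone (0), 0 with the fat score with or without the block (3 and 26), 2 without the arrays of high beta-actin ratio (172), 1 with the cRNA note as a covariate (79), 38 with array weights (1605) and 2 to 18 without 1 array (154 to 1021). The median at 15 against 3 months was 0.015 with fat score and block, and at 28 against 15 months it was 0.399 on day 1 (1 member called, 515 of all) and -0.126 on day 2. The causes were not tested. The replicate block changed no other count of calls among the members.

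Of 34 named probe sets, 14 turned sign at 28 against 3 months in 43 of 1109 alternatives, none of them called. With the fat score as a covariate this was so for Rps6 (M29358_at -0.133, M29358_g_at -0.198), Rps16 (-0.002), Rpl3 (X62166cds_s_at -0.107), Rpl4 (-0.002), Rpl39 (-0.042), Rps15 (rc_AA892895_i_at 0.019, rc_AA892895_r_at -0.007) and Rps29 (rc_AA965264_at -0.025). With the score and the block it was so for Rps6 (-0.083 in both), Rps16 (-0.139), Rps3 (X51536cds_at -0.026, X51536cds_g_at -0.011), Rps29 (X59051cds_s_at -0.057, rc_AA965264_at -0.033), Rpl3 (X62166cds_s_at -0.08) and Rps15 (rc_AA892895_r_at -0.125). On day 1 it was so for Rpl21 (rc_AA849648_at 0.035), Rps15 (0.259 and -0.342), Rps29 (rc_AA965264_at -0.098) and Rpl5 (-0.004). With array weights Rpl21 gave 0.007 and Rps15 (rc_AA892895_i_at) 0.159, with the cRNA note Rps15 gave 0.096, Rps29 -0.026 and Rpl5 -0.002, without the arrays of high beta-actin ratio Rps15 gave 0.209 and -0.056 and Rps29 -0.015, and with quantile normalization Rps15 (rc_AA892895_r_at) gave -0.009. Without 1 array, Rps15 ran between -0.245 and 0.209 (rc_AA892895_i_at) and between -0.323 and 0.123 (rc_AA892895_r_at), and Rps29 (rc_AA965264_at) between -0.039 and 0.1.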
